A study of Mus musculus with 16 samples.

Results

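Sarcolipin (Sln), the atrial essential and regulatory myosin light chains (Myl4 and Myl7) and bone morphogenetic protein 10 (Bmp10) are 4 of the 55492 genes listed for the left ventricle libraries described here. They were selected on the measured per-library values of this table, as genes characteristic of the atrium whose levels in ventricle could report on tissue sampling and on a return of atrial or fetal expression. Their levels and group differences are therefore given as a description, without a test. Sln, Myl4 and Myl7 passed the filter of a mean of at least 10 normalized counts, as 20576 genes did, and Bmp10 did not. A normalized count is the number of reads on a gene divided by the library's size factor.

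The libraries came from C57BL/6 male mice aged 8 to 12 weeks. PKM2fl/fl controls carried the floxed allele of Pkm exon 10, the exon particular to the M2 form of pyruvate kinase, and no Cre. PKM2-/- mice lacked that exon in all tissues after germline excision by a CMV-driven Cre that was then bred out. Hearts were taken unoperated (baseline, 2 libraries per genotype) or 3 days after sham surgery or after myocardial infarction (MI) by permanent ligation of the left anterior descending artery (3 libraries per genotype and operation). The left ventricle was frozen and pulverized, so each library holds all cell types of the tissue sampled. The tissue names no cell type, and in such bulk samples fewer cells of a type and less RNA per cell cannot be told apart. The values are per gene, so the loss of the exon itself cannot be checked with them. Depth was 20623769 to 71855101 reads per library, and Myl2, the ventricular regulatory light chain, was at 13324 to 106311 normalized counts in all 16 libraries, as the ventricular label requires.

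In the adult mouse heart these genes mark atrial rather than ventricular muscle. Sarcolipin is a small membrane protein that inhibits the sarcoplasmic reticulum calcium pump SERCA in atrium and skeletal muscle, where phospholamban (Pln) has that role in ventricle. Myl7 and Myl4 are the regulatory and essential light chains of atrial myosin, and their ventricular counterparts are Myl2 and Myl3. Myl4 is also made by the fetal ventricle. Bmp10 is a secreted ligand of the right atrial trabecular muscle, and it signals through the endothelial receptor ALK1 (Acvrl1).

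The RefSeq annotation of GRCm38.p6, the assembly that mm10 names, places Myl7 on chromosome 11 at 5896637 to 5898782 and Myl4 on the same chromosome at 104546017 to 104587215. Sln lies on chromosome 9 at 53850251 to 53853849, 5.80 megabases before the start of Pkm, the gene altered in the knockout. Bmp10 lies on chromosome 6 at 87428994 to 87434512. The 250 bases before the annotated start are shown for 3 of the 4 genes that varied together in these libraries, Myl7, Myl4 and Mybphl, a myosin-binding protein of atrial and conduction muscle from the comparison list. The other gene, Sln, is not shown. Each is written 5′ to 3′ on the strand of the gene, and capitals mark 4 motifs searched on both strands: the CArG box bound by SRF, the MEF2 site, GATAA and GTGTGA, the cores of GATA and T-box sites. The Myl7 window is chr11:5898783-5899032 (minus strand), the Myl4 window chr11:104550413-104550662 (plus strand, inside the gene's span and so at 1 of its starts), and the Mybphl window chr3:108364661-108364910 (plus strand).
Myl7: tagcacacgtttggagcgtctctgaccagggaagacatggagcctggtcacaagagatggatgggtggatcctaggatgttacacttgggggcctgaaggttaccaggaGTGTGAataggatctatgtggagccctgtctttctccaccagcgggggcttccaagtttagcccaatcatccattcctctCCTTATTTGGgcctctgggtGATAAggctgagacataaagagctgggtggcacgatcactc
Myl4: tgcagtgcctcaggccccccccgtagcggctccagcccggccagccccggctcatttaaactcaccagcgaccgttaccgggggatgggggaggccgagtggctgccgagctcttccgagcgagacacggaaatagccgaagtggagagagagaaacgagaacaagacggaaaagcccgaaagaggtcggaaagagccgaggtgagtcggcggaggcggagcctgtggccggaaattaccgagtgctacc
Mybphl: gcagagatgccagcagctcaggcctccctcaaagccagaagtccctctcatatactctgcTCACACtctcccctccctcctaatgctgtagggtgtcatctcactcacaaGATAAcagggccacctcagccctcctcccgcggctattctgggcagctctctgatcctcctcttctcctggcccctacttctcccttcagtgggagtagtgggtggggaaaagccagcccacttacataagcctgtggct
The Myl7 window held a CArG box 61 to 52 bases before the start, GATAA 41 to 37 bases before it and GTGTGA 141 to 136 bases before it. The Mybphl window held GATAA and, on the other strand, GTGTGA, and the Myl4 window held none of the 4 motifs. The Bmp10 window, which is not shown, held GATAA in 2 places. No window of these held a MEF2 site. Of 32851 promoter windows of this length, 1.47% held a CArG box, 2.92% a MEF2 site, 22.6% GATAA and 12.3% GTGTGA, so that the CArG box of Myl7 is the least common of these matches. A match of letters describes the sequence and does not show that a factor was bound.

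Sln varied several-fold between libraries of the same group. In PKM2fl/fl mice its normalized counts were 0 and 6.63 in the baseline libraries, 170, 28.7 and 208 after sham surgery and 9.27, 110 and 80.5 after MI. The PKM2-/- libraries were at 60.6 and 14.7 at baseline, 220, 88.8 and 22.7 after sham surgery and 13.0, 135 and 44.7 after MI. The library listed at 0 allows a level of up to 2.35 normalized counts, the value of 3 reads. Low and high libraries were found within sham and within MI, and these conditions overlapped in both genotypes. The most reads on Sln in a library were 425, in sham library 3 of PKM2fl/fl mice.

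Myl7 ordered the libraries much as Sln did. In PKM2fl/fl mice it was at 10.99 and 19.9 normalized counts at baseline, 401, 90.3 and 405 after sham surgery and 24.7, 140 and 113 after MI. For PKM2-/- mice the values were 139 and 51.3 at baseline, 378, 226 and 69.0 after sham surgery and 9.73, 246 and 77.9 after MI. The highest library was 41.7 times the lowest. Both ends of that range were operated mice, a sham library at the top and an MI library of PKM2-/- mice at the bottom.

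Myl4 was the most abundant of the 4 in reads and had a narrower range, the highest library being 9.50 times the lowest. In PKM2fl/fl mice it was at 127 and 93.5 normalized counts at baseline, 694, 194 and 663 after sham surgery and 111, 332 and 398 after MI. Those of PKM2-/- mice were at 212 and 141 at baseline, 889, 479 and 261 after sham surgery and 119, 467 and 250 after MI. No library fell below 93.5, so Myl4 kept a level where Sln and Myl7 came close to 0.

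Bmp10 was at or near the limit of detection throughout. It had 0 reads in 13 of the 16 libraries, 4 reads in sham library 2 of PKM2fl/fl mice, and 2 reads each in baseline library 2 and MI library 1 of PKM2-/- mice. Those reads correspond to 4.11, 3.67 and 1.62 normalized counts. In those 13 libraries a count of 0 allows between 1.47 and 4.82 normalized counts, depending on the library, so no difference between groups was detectable at this depth. The 3 libraries highest in Myl7, Myl4 and Sln had no Bmp10 read, and their limits were 1.47, 1.76 and 4.82 normalized counts.

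**Figure D1:**
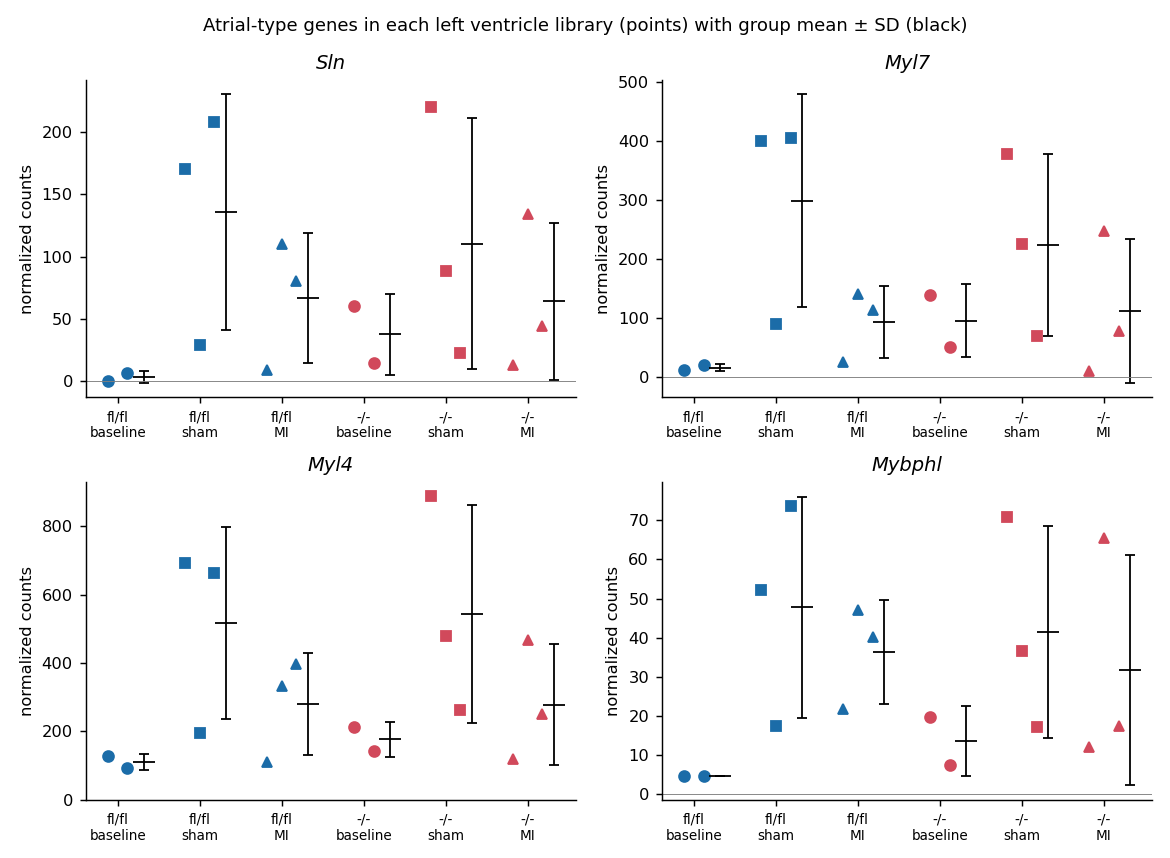
Normalized counts (vertical axis, linear from 0) of Sln, Myl7, Myl4 and Mybphl in each left ventricle library, by genotype (blue PKM2fl/fl, red PKM2-/-) and condition (circles baseline, squares sham, triangles MI), with the group mean and SD in black (n = 2 at baseline, 3 otherwise). In Myl7 the sham libraries reach from 69.0 to 405 and the MI libraries from 9.73 to 246, so the conditions overlap, while both PKM2fl/fl baseline libraries lie under 20.

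Set against the ventricular genes of the same role, the atrial-type transcripts were a small fraction in every library. Per kilobase of the canonical transcript, Myl7 was between 0.0181% and 2.22% of Myl2, with a median of 0.347% over the 16 libraries. On the same scale Myl4 was 0.157% to 3.95% of Myl3, with a median of 0.804%. Sln was 0% to 2.45% of Pln per kilobase, with a median of 0.265%. These shares depend on the length of the transcript model taken for each gene, and those with Pln and the ventricular light chains also rise where the ventricular gene falls, as it did after MI.

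Sln, Myl7 and Myl4 varied together inside the groups. Likeness was taken as Pearson's r between 2 genes over the 16 libraries, on log2 values from which the mean of each group had been subtracted. It was 0.919 for Sln and Myl7, 0.920 for Myl4 and Myl7 and 0.850 for Sln and Myl4, and Spearman's rho was 0.909, 0.918 and 0.818. The 2 libraries farthest from the median of 1 gene of a pair were also left out. The r of Myl4 and Myl7 was then 0.907 or 0.903, depending on which gene set the libraries. It was 0.895 or 0.923 for Sln and Myl7 and 0.778 for Sln and Myl4. These are descriptions over libraries that share their scaling, and 20575 genes were ranked on 16 points, so a single high place carries little weight.

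The same 3 libraries stood highest for each of the 3 genes: sham libraries 3 and 1 of PKM2fl/fl mice and sham library 1 of PKM2-/- mice. They include the deepest library of the series, with 71855101 reads, and the shallowest, with 20623769 reads. The baseline libraries of PKM2fl/fl mice, MI library 1 of PKM2fl/fl mice and MI library 1 of PKM2-/- mice filled the last 4 places of Myl7, of Sln and of Myl4. High and low libraries therefore came from operated mice of both genotypes, apart from the baseline pair.

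Among other genes, Mybphl lay close to all 3, with r of 0.862 to Sln, 0.913 to Myl4 and 0.904 to Myl7. Its normalized counts were 4.71 and 4.64 at baseline, 52.3, 17.5 and 73.5 after sham surgery and 21.6, 47.2 and 40.2 after MI in PKM2fl/fl mice. They were 19.8 and 7.33 at baseline, 70.7, 36.6 and 17.3 after sham surgery and 12.2, 65.4 and 17.3 after MI in PKM2-/- mice. When levels were ranked without subtracting group means, Myl7, Mybphl and Myl4 took the first 3 places for Sln, and the first 3 places for Myl7 and for Myl4 likewise fell to the other genes among Sln, Myl4, Myl7 and Mybphl. The 5 nearest genes on deviations were Phlpp1, Myl7, Dennd1b, Jakmip1 and Cpne9 for Sln, then Fgf12, Myl7, Mybphl, Gm47460 and Zfp455 for Myl4, and Myl4, Sln, Mybphl, Kat6a and Gm42559 for Myl7. Some of these places did not last, since r of Phlpp1 to Sln went from 0.942 on deviations to −0.18 on levels and that of Kat6a to Myl7 from 0.904 to 0.497 under scaling by total count.

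**Figure D2:**
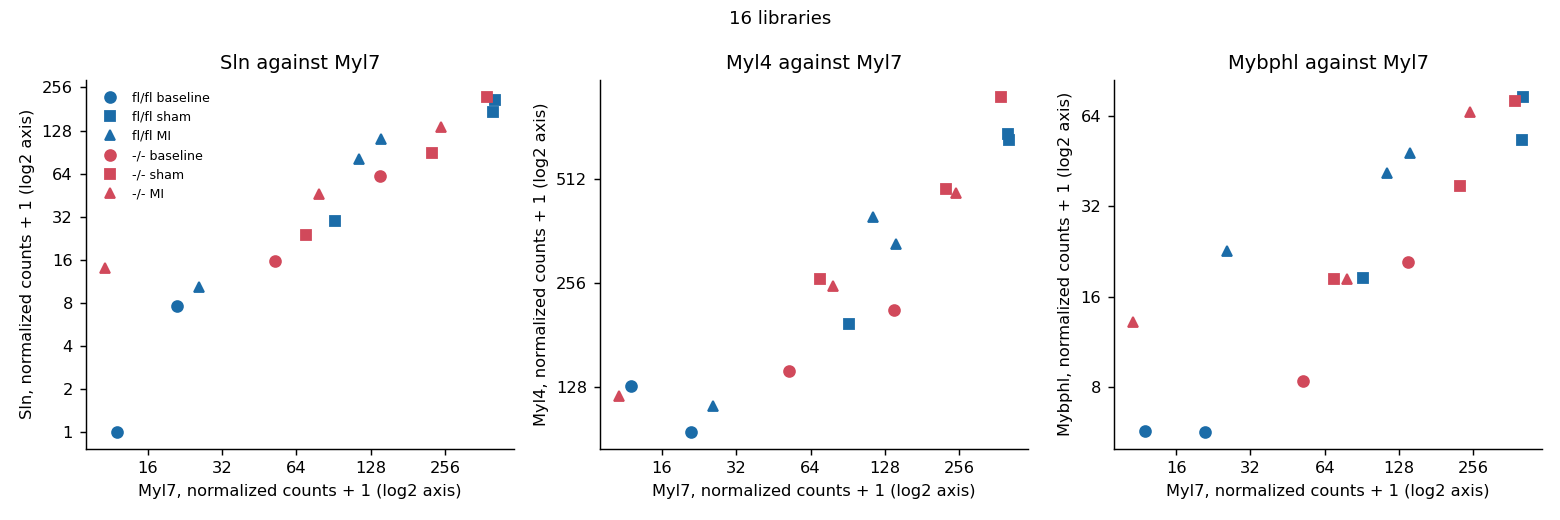
Sln, Myl4 and Mybphl against Myl7 in 16 libraries, as normalized counts plus 1 on log2 axes, with colours for genotype and symbols for condition. The points rise together in each panel, and Myl4 levels off at 93.5 to 127 normalized counts in the 4 libraries with Myl7 under 25.

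The proportions between the genes changed with their level. In the 5 libraries with Myl7 over 200 normalized counts, Myl4 was 1.64 to 2.35 times Myl7 and Sln was 0.393 to 0.583 times Myl7, in normalized counts. In the 4 libraries with Myl7 under 25, Myl4 was 4.50 to 12.2 times Myl7, and Myl4 was at 93.5 to 127 normalized counts there. Myl7 rested on only 12 to 30 reads in them, so the ratios to it are imprecise. Sln was 0 to 1.33 times Myl7 in those 4 libraries, where it rested on 16 reads or fewer. Between these levels, in 7 libraries, the ratio of Myl4 to Myl7 was 1.53 to 3.78. The ratio thus spanned a narrower range where the genes were high, and Myl4 did not follow Myl7 down where they were low.

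Other genes known for higher atrial than ventricular expression did not share this pattern as a group. The summed level of 17 such genes had an r of 0.41 to Sln, 0.44 to Myl4 and 0.30 to Myl7 over the 16 libraries, and Nppa and Pam make up much of that sum. Nppa, which encodes atrial natriuretic peptide and is also induced in stressed ventricle, had an r of 0.07, 0.31 and 0.09 to the 3 genes. After Mybphl the nearest of the list was Sbk3, a kinase of heart muscle, with 0.70, 0.57 and 0.54 on deviations. On levels Dkk3, a secreted protein related to the Wnt antagonists of the Dickkopf family, was nearer, with 0.72, 0.68 and 0.62 against 0.23, 0.38 and 0.42 for Sbk3. Myl2 had an r of −0.42 to Sln, −0.54 to Myl4 and −0.45 to Myl7 on deviations. These did not last in other settings, with −0.06, −0.04 and −0.13 under scaling by total count and −0.12, 0.02 and 0.13 on levels. Of 8 sinoatrial and conduction genes the summed level had an r of −0.48, −0.56 and −0.63 on deviations, and other settings were not computed for it. That sum was 1586 to 2806 normalized counts, and Smoc2, at 824 to 1538, makes up much of it. Isl1 of the same list had 1 read in all libraries together.

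Skeletal muscle is the other tissue rich in Sln. The summed level of its 12 marker genes was between 74.6 and 174 normalized counts in all groups, and 4 of the 12 passed the filter. The fast myosin heavy chains Myh1, Myh2, Myh4 and Myh8 stayed under 6 normalized counts in each library. Tnnt3 of this list reached 96.5 normalized counts in 1 library. It rose by 1.33 on the log2 scale after MI in PKM2fl/fl mice (adjusted p = 0.0345, limma). The adjusted p was 0.0754 under scaling by total count and 0.0666 without a filter. The skeletal muscle sum had an r of −0.42 to Sln, −0.28 to Myl4 and −0.51 to Myl7. The part of skeletal muscle in the values of Sln was not tested. The adipocyte, epicardial and mesothelial, endothelial, leukocyte and fibroblast sums had r between −0.47 and 0.27 to Sln, Myl4 and Myl7.

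**Figure D3:**
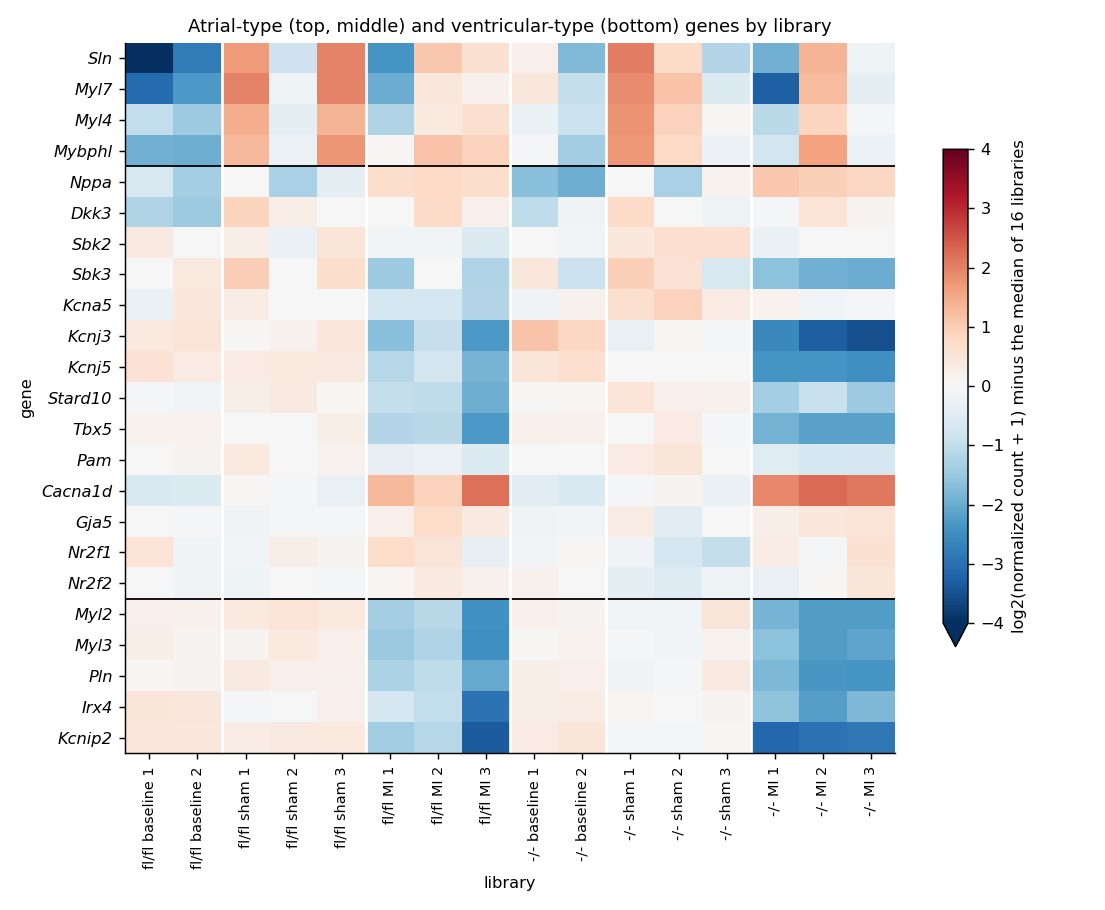
Log2 of the normalized count plus 1 minus the gene's median over 16 libraries (colour) for Sln, Myl7, Myl4 and Mybphl (top), other atrial-type genes (middle) and ventricular-type genes (bottom), with libraries in columns by group (the scale saturates for Sln in baseline library 1 of PKM2fl/fl mice, listed at 0). The top rows change from library to library inside a group, while Kcnj5, Tbx5, Myl2 and Pln fall in all MI libraries of both genotypes.

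MI did not separate the atrial-type genes from sham. On the log2(normalized count + 1) scale, MI minus sham was −1.17 (SE 1.14) for Sln, −0.86 (SE 0.60) for Myl4 and −1.72 (SE 0.99) for Myl7 in PKM2fl/fl mice. PKM2-/- mice had differences of −0.81 (SE 1.14), −0.997 (SE 0.60) and −1.62 (SE 0.99). MI and sham libraries overlapped for 3 of 3 genes in each genotype, whereas they did not overlap, in either direction, for 59% of all genes tested in PKM2fl/fl mice and 62.3% in PKM2-/- mice. Single libraries set the size: without MI library 1 the PKM2-/- difference of Sln was 0.02 and that of Myl7 −0.38, and without MI library 1 of PKM2fl/fl mice the differences there were −0.10 for Sln, −0.30 for Myl4 and −0.95 for Myl7. The PKM2-/- minus PKM2fl/fl gap in the MI difference was smaller than its SE for each gene, at 0.36 (SE 1.62) for Sln, −0.13 (SE 0.84) for Myl4 and 0.11 (SE 1.40) for Myl7.

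The ventricular genes of the same roles fell after MI. Myl2 fell by 2.07 on the log2 scale in PKM2fl/fl mice (SE 0.28, adjusted p = 2.75e-05, limma) and fell by 2.19 in PKM2-/- mice (SE 0.28, adjusted p = 1.07e-05). Of 8 ventricular-type genes, 7 were called lower after MI in each genotype, with Hey2, a ventricular transcription factor, at −0.51 and −0.68 as the exception. Called means a change of 2-fold or more with an adjusted p under 0.05, and over all genes 12.4% were called higher and 11.1% lower in PKM2fl/fl mice, against 14.5% and 14.3% in PKM2-/- mice. The summed level of 8 cardiomyocyte markers was 1240340 to 1391130 normalized counts in PKM2fl/fl sham libraries and 258821 to 571981 after MI, and that of 5 fibroblast markers went from 20865 to 38524 up to 130189 to 140595. Of those 5, the matrix genes Col1a1, Col3a1 and Postn were called higher in both genotypes. Pdgfra, at 0.70 in PKM2fl/fl and 0.84 in PKM2-/- mice, and Dcn, at −0.53 and −0.58, were not called. The part of cardiomyocytes and fibroblasts in the values of Sln, Myl4 and Myl7 was not tested.

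In the list of 17 other atrial-type genes, 15 could be tested, and after MI more were called lower than higher. In PKM2fl/fl mice 2 were called higher, 5 lower and 8 neither, with a median log2 difference of −0.43 against −0.0025 over all genes. In PKM2-/- mice the counts were also 2, 5 and 8, with a median of −0.64 against 0.01. Over all genes, 12.4% were called higher and 11.1% lower in PKM2fl/fl mice, and 14.5% and 14.3% in PKM2-/- mice. Nppa rose by 1.28 (SE 0.34, adjusted p = 0.00501) and 1.33 (SE 0.34, adjusted p = 0.00328), and its call was lost without sham library 2 of either genotype, where the difference was 0.91 and 0.88. Cacna1d, a pore subunit of L-type calcium channels of atrium and pacemaker, rose by 1.59 (adjusted p = 4.31e-05) and 2.17 (adjusted p = 1.88e-06). Kcnj3 and Kcnj5, which form the acetylcholine-gated potassium channel, had differences of −1.86 and −1.60 in PKM2fl/fl mice and of −3.03 and −2.39 in PKM2-/- mice, all called lower. Tbx5, Stard10 and Sbk3 were the other genes called lower in both, though the PKM2fl/fl call of Sbk3 was lost without sham library 1, MI library 1 or MI library 3, at −1.25, −1.17 and −1.29. Mybphl was not called, at −0.23 (adjusted p = 0.792) and −0.54 (adjusted p = 0.510). A list of 7 fetal programme genes, which includes Nppa, had a median log2 difference after MI of 1.05 in PKM2fl/fl and 0.92 in PKM2-/- mice. In PKM2fl/fl mice 3 were called higher and 1 lower, and in PKM2-/- mice 2 higher and 0 lower. Nppb rose by 1.23 (adjusted p = 0.00321) and 1.72 (adjusted p = 0.000182). Myh7 fell by 1.81 (adjusted p = 0.00347) in PKM2fl/fl mice and was not called in PKM2-/- mice, at −0.93.

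**Figure D4:**
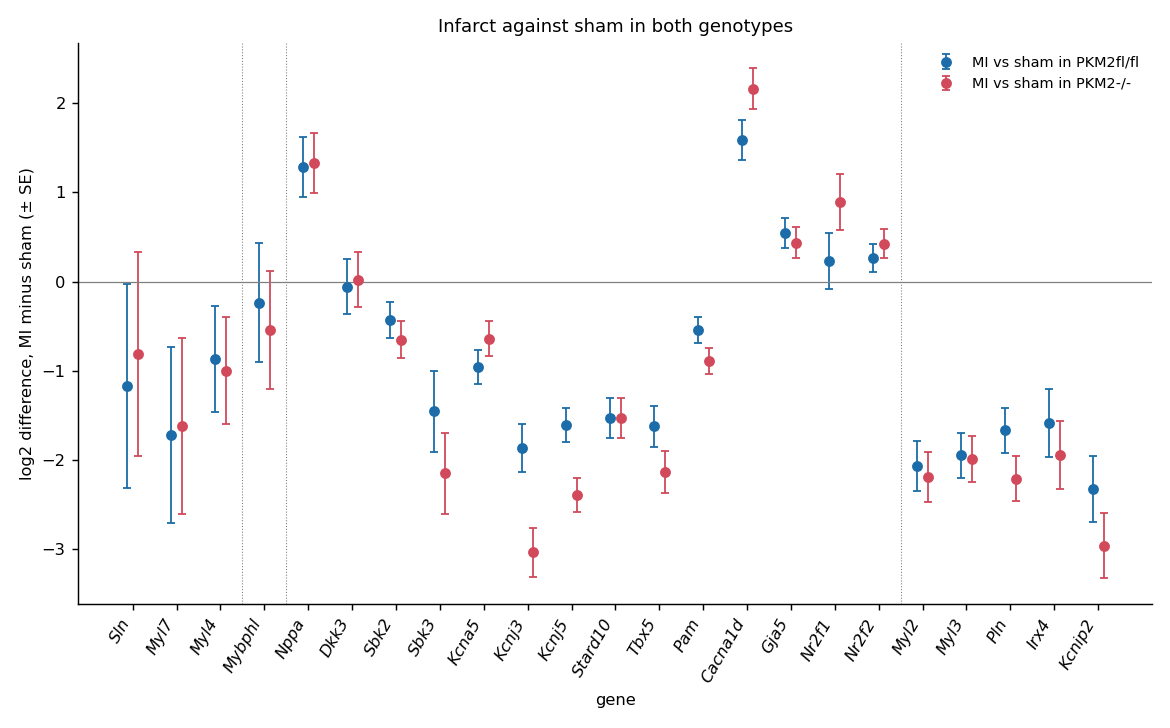
Log2 difference of MI minus sham (points) with SE (bars) in PKM2fl/fl (blue) and PKM2-/- (red) for Sln, Myl7 and Myl4, then Mybphl, other atrial-type genes and ventricular-type genes. The bars of Sln, Myl7 and Myl4 (SE 0.60 to 1.14) are wide beside those of Myl2 (SE 0.28), and Nppa and Cacna1d lie above 0 where Myl2, Myl3 and Pln lie near −2.

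At baseline Sln, Myl4 and Myl7 were higher in both PKM2-/- libraries than in both PKM2fl/fl libraries. The differences were 3.49 (SE 1.40) for Sln, 0.66 (SE 0.73) for Myl4 and 2.43 (SE 1.21) for Myl7 on the log2 scale. That order held for 3 of 3 genes and for 17.7% of all genes tested. Bmp10 had reads in 1 of the 4 libraries, and of the 15 other atrial-type genes tested none was called, with a median difference of 0.04. Since these 3 genes vary together, they do not count as separate observations. The size for Sln depends on the pseudocount, because 1 of the PKM2fl/fl libraries had 0 reads and the other 10, and without the former it was 2.02. Mybphl had a difference of 1.21 (SE 0.81) that did not pass the test (adjusted p = 1.00, limma), and 2 genes of all 20576 were called.

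That order was not seen in operated mice. After sham surgery, PKM2-/- minus PKM2fl/fl was −0.39 (SE 1.14) for Sln, 0.11 (SE 0.60) for Myl4 and −0.44 (SE 0.99) for Myl7. After MI it was −0.04 (SE 1.14), −0.03 (SE 0.60) and −0.33 (SE 0.99). The genotypes overlapped for 3 of 3 genes in both conditions, while 16.5% of all genes after sham surgery and 18.9% after MI did not overlap in either direction. The sign turned with single libraries, from −0.33 to 0.90 for Myl7 after MI without MI library 1 of PKM2-/- mice, and from −0.44 to 0.25 after sham surgery without sham library 3 of PKM2-/- mice. Among the other atrial-type genes, Kcnj3 was called lower in PKM2-/- mice after MI at −1.50 (SE 0.27, adjusted p = 0.0290) and Kcnj5 at −1.15 (SE 0.19, adjusted p = 0.0234), and both calls were lost when only the compared groups were fitted and when scaling by total count. Both were also lost without MI library 1 or 2 of PKM2fl/fl mice or MI library 3 of PKM2-/- mice, as was that of Kcnj3 without MI library 2 and that of Kcnj5 without MI library 1 of PKM2-/- mice, the differences then being no smaller in size than −1.15 and −0.90.

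Sham libraries stood above baseline libraries in PKM2fl/fl mice. Sham minus baseline was 5.21 (SE 1.28) for Sln, 2.03 (SE 0.67) for Myl4 and 3.96 (SE 1.10) for Myl7, and all sham libraries lay above both baseline libraries for 3 of 3 genes, against 17.4% of all genes. In PKM2-/- mice the differences were 1.32 (SE 1.28), 1.47 (SE 0.67) and 1.09 (SE 1.10), and 1 of 3 genes, Myl4, did not overlap, against 18.4% of all genes. The comparisons with baseline and those with sham share libraries, so that the low PKM2fl/fl baseline values enter both the genotype and the sham difference. Mybphl had sham minus baseline differences of 2.88 (SE 0.74, adjusted p = 0.143) in PKM2fl/fl and 1.48 (SE 0.74, adjusted p = 0.306) in PKM2-/- mice. Nppa was called higher in sham than in baseline PKM2-/- libraries, by 1.43 (SE 0.38, adjusted p = 0.0395), a call lost without a filter and when only the compared groups were fitted. It was also lost without any 1 baseline library, sham library 1 or 3 or any 1 MI library of PKM2-/- mice, and without MI library 1 of PKM2fl/fl mice, with differences of 1.17 to 1.56. Each of these comparisons has 2 baseline libraries on one side. Leukocyte and fibroblast markers were also higher in sham libraries. In PKM2fl/fl mice the sum of 8 leukocyte markers was between 3641 and 4644 normalized counts at baseline and between 5196 and 10636 after sham surgery. It was between 3656 and 5031 and between 7213 and 9119 in PKM2-/- mice. The sum of 5 fibroblast markers was between 14297 and 17597 and between 20865 and 38524 in PKM2fl/fl mice, and between 14875 and 16964 and between 23399 and 38008 in PKM2-/- mice. Sums of 4 endothelial and 3 smooth muscle markers were lower after sham surgery in PKM2fl/fl mice. The endothelial sum went from between 16541 and 17142 to between 12360 and 14749. The smooth muscle sum went from between 2197 and 2975 to between 1707 and 1949. Both sums overlapped between sham and baseline in PKM2-/- mice. Of the leukocyte and fibroblast markers, 3 of 8 and 2 of 5 were called higher in PKM2-/- mice and none in PKM2fl/fl mice. Over all 20576 genes tested, 423 were called higher in PKM2-/- mice and 33 in PKM2fl/fl mice. The median log2 difference of the leukocyte markers was 0.97 in PKM2-/- and 0.96 in PKM2fl/fl mice. That of the fibroblast markers was 0.44 and 0.75. The part of these cell types in the values of Sln, Myl4 and Myl7 was not tested.

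Sln acts with the calcium pump and a family of small regulators, several of which fell after MI. Of 8 genes listed, 6 could be tested, and 4 were called lower in PKM2fl/fl mice and 3 in PKM2-/- mice, with none higher. Over all genes, 11.1% and 14.3% were called lower in these genotypes. Atp2a2, the cardiac pump, fell by 1.80 (SE 0.33, adjusted p = 0.000325) and 2.54 (SE 0.33, adjusted p = 1.11e-05). Pln fell by 1.67 (adjusted p = 6.74e-05) and 2.21 (adjusted p = 3.72e-06), and Strit1, which encodes the pump activator DWORF, fell by 2.81 (adjusted p = 0.000296) and 2.27 (adjusted p = 0.00131). Mrln, which encodes the pump inhibitor myoregulin, was the fourth called in PKM2fl/fl mice, at −1.72 (adjusted p = 0.0332), and its call was lost without a filter, with only the groups compared, and without sham library 2, sham library 3 or MI library 3. Sln, at −1.17 and −0.81, on the same scale, overlapped between MI and sham.

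Of 13 myosin light chain and light chain kinase genes beside Myl4 and Myl7, 12 could be tested. After MI, 4 were called lower in each genotype, the ventricular chains Myl2 and Myl3 and the kinases Mylk3 and Mylk4, of which Mylk3 phosphorylates the cardiac regulatory chain. Over all genes, 11.1% were called lower in PKM2fl/fl mice and 14.3% in PKM2-/- mice, where 14.5% were called higher. Mylk3 fell by 1.83 (adjusted p = 5.62e-05) and 2.31 (adjusted p = 4.86e-06), and Mylk4 by 2.64 and 3.62. Myl6, the essential light chain of non-muscle and smooth muscle myosin, was called higher in PKM2-/- mice, by 1.28 (adjusted p = 7.07e-07), and was at 0.95 in PKM2fl/fl mice.

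The receptors through which Bmp10 signals were expressed although the ligand was not detectable in most libraries. Of 16 genes of the pathway, 15 could be tested, Gdf2, which encodes the related ligand BMP9, being too low. After MI, 1 was called higher and 1 lower in PKM2fl/fl mice, and 1 higher and 2 lower in PKM2-/- mice. Over all genes, 12.4% were called higher and 11.1% lower in PKM2fl/fl mice, and 14.5% and 14.3% in PKM2-/- mice. The pathway thus held no more calls than its share. Id2, a transcriptional target of BMP signals, rose by 1.63 (adjusted p = 0.000206) and 2.16 (adjusted p = 1.17e-05). Other genes of the list went both ways and were not called. Id1 was at −0.60 and −0.46, Smad6 at −0.18 and −0.93, and Id3 at 0.35 and 0.62. Tcap, a Z-disc protein that binds Bmp10 in muscle, fell by 2.32 (adjusted p = 7.86e-05) and 2.35 (adjusted p = 4.72e-05), and Smad9 fell by 1.08 (adjusted p = 0.00135) in PKM2-/- mice. The call of Smad9 was lost under total count scaling, at −0.58, and without sham library 3 or MI library 2 of PKM2-/- mice. Acvrl1 was at 762 to 1170 normalized counts in the 16 libraries. Its MI difference, at 0.32 and 0.04, and that of its co-receptor Eng, at 0.25 and −0.01, were not called in either genotype.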

How the data were processed

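rRNA-depleted RNA of 16 left ventricles was sequenced, in 6 groups read from the sample labels, and each library was taken as a separate mouse. The authors used HISAT2 for alignment to mm10 after trimming, featureCounts for gene counts and DESeq2 for size factors and comparisons. Strand and multi-mapping settings are not given in the sources used here. The deposited normalized signal is the reads on a gene over the size factor of that library. The table also holds the authors' log2 fold change between baseline groups with its standard error, their Wald score and each p-value with its adjusted form, none of which was used. All columns of per-sample values were mapped.

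Members and gene lists were chosen with earlier results of these data known. limma 3.58.1 (R 4.3.3, trend) was fitted to log2(value + 1) of all libraries in 6 groups, for genes with a mean of at least 10, with Benjamini-Hochberg adjustment. A gene was called at an adjusted p under 0.05 and a 2-fold change. P-values measure the spread between these libraries. The values gave whole reads in 100% of cases (tolerance 0.05 reads), and the total per library was 20623769 to 71855101. On those reads, edgeR 4.0.16 called 4913 genes after MI in PKM2fl/fl and 5978 in PKM2-/- mice, against 4832 and 5923 by limma. Intervals and limits of 3 reads cover counting error only. The fit was tested on simulated counts with the same spread set for every gene, so that test does not cover genes as variable between libraries as Sln and Myl7. Named genes were Sln, Myl4, Myl7 and Bmp10, always Myl2, Myl3, Nppa, Mybphl, Pln and Atp2a2, up to 3 called genes of each list and comparison with the smallest p, the 5 genes most like each member, and defining markers of other cell types. Some called genes that this rule selects were left unnamed in the results, such as Hcn4 and Tbx18 of the sinoatrial and conduction list. Hey2, Sbk3, Dkk3, Myl6, Acvrl1, Eng, Id1, Id3, Smad6, Smoc2, Pdgfra, Dcn and the genes named to complete a count were added after their values were seen. Positions and sequences came from RefSeq (GRCm38.p6), with positions matched for 4 of the 4 genes and promoter windows for 3 (Myl4, Myl7 and Bmp10), and transcript lengths from GENCODE. Alternatives were other scalings, pseudocount, filters, fits, tools, a replicate block and leaving out each library.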

Additional observations from a re-analysis of the deposited data

Results flagged for a closer look

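Nppa, the atrial natriuretic peptide gene from the comparison list, had genotype differences of opposite sign at baseline and after MI, and neither passed the test (limma, −0.81 with adjusted p = 1.00 and 0.22 with adjusted p = 0.789). At baseline it was at 3491 and 2150 normalized counts in the PKM2fl/fl libraries and at 1717 and 1429 in the PKM2-/- libraries, all of the latter lower. After MI it was at 8935, 9596 and 8868 in PKM2fl/fl libraries and 11510, 10670.3 and 9822 in PKM2-/- libraries, all of the latter higher. After MI, 18.9% of all genes did not overlap between genotypes, in either direction. At baseline, 17.7% of all genes were higher in both PKM2-/- libraries than in both PKM2fl/fl libraries, and the share lower was not computed. The PKM2-/- minus PKM2fl/fl difference at baseline minus that after MI was −1.03 on the log2 scale, and this difference was not tested. Sln, Myl4 and Myl7 were each higher in PKM2-/- libraries at baseline and overlapped after MI.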

How the results depend on the processing

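The number of genes called between genotypes or between sham and baseline depended on the setting, and Sln, Myl4 and Myl7 kept their description in most. At baseline, the 2 genes called became 44 under total count scaling, 9 with a pseudocount of 0.1, 41 with only the groups compared, 1 with a replicate block, 1 with edgeR and 16 with DESeq2. After sham surgery, the single gene called became 114 under total count scaling, 0 without a filter, 9 with only the groups compared, 0 with a replicate block and 112 with DESeq2. After MI, 85 genes became 6 with only the groups compared, 46 with a replicate block and 292 with DESeq2. For sham against baseline, 35 genes in PKM2fl/fl mice became 94 under total count scaling, 1 with only the groups compared, 23 with a replicate block, 23 with edgeR and 248 with DESeq2, and 548 in PKM2-/- mice became 363 with only the groups compared. The genotype by MI interaction, with 0 genes called by limma (1703 at an unadjusted p under 0.05) and 0 by edgeR, gave 52 under total count scaling and 34 with DESeq2. With a pseudocount of 0.1, the Sln difference was 5.19 between genotypes at baseline and 6.94 for sham against baseline in PKM2fl/fl mice.

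Leaving out 1 library at a time gave 0 (the lowest) to 40 genes (without PKM2-/- baseline replicate 1) between genotypes at baseline, 0 to 49 (without PKM2-/- sham replicate 3) after sham surgery and 11 (without PKM2-/- MI replicate 3) to 632 (without PKM2fl/fl MI replicate 3) after MI. It gave 7 (without sham replicate 1) to 212 (without sham replicate 3) for sham against baseline in PKM2fl/fl mice, 243 to 622 in PKM2-/- mice, and 0 to 226 (without PKM2fl/fl MI replicate 3) for the interaction. Mybphl, not called, ranged from −0.83 to 0.18 and from −0.78 to 0.31 in 2 comparisons. It changed sign for MI against sham in PKM2fl/fl mice, to 0.18 without sham replicate 3 and 0.09 without MI replicate 1, and for the genotypes after sham surgery, to 0.22 without PKM2fl/fl replicate 3 and 0.31 without PKM2-/- replicate 3. It was called for sham against baseline in PKM2fl/fl mice with total count scaling (2.87) and DESeq2 (3.36). Total count scaling moved the median of all genes by −0.17 (MI, PKM2fl/fl), 0.52 (MI, PKM2-/-) and −0.59 (baseline). The cause of these changes was not tested. The replicate numbers only name the libraries, since same-numbered libraries had a median correlation of deviations of −0.03 and 1 of 36 pairs was above 0.1. The precision is limited by 2 or 3 libraries per group, and for Bmp10 by 8 reads in all.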
